A study of Homo sapiens with 9 samples.

Results

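HMOX1, TXNRD1 and GSR encode 3 redox enzymes, and their expression was followed in human endothelial cells exposed to silver nanoparticles of different size. Each gene is read by 1 probe set whose annotated gene symbol is HMOX1, TXNRD1 or GSR, so the members are 3 of the 14884 genes with a named probe set. A named probe set here is one annotated with 1 symbol only. They were selected on their measured responses, namely the differences from unexposed cells for both particle sizes within each replicate number. Their values are therefore given as a description, with no test. All 3 passed the filter on dim probe sets, a log2 value of at least 5 on at least 3 arrays, which kept 12155 genes.

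The cells were EA.hy926, an established line made by fusing umbilical vein endothelial cells with A549 lung carcinoma cells, so it is a hybrid and not a primary endothelium. Total RNA was measured on 9 arrays in 3 groups of 3: unexposed cells (control), cells exposed for 6 h to silver nanoparticles of 5 nm, and cells exposed for 6 h to silver nanoparticles of 100 nm. Each particle was used at roughly its own LD50, so a difference between sizes may also be one of dose, and no mass dose was available for this text. The labels do not state whether the replicates were separate cultures, so p-values cover only the spread between these arrays, which may be technical.

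HMOX1 is the inducible heme oxygenase, which opens the heme ring to release iron, carbon monoxide and biliverdin. TXNRD1 is the cytosolic thioredoxin reductase, a selenoprotein flavoenzyme that uses NADPH to reduce thioredoxin. GSR is glutathione reductase, a related flavoenzyme that uses NADPH to regenerate reduced glutathione from its disulfide. All 3 are textbook targets of the transcription factor NRF2 (gene NFE2L2), which pairs with small MAF proteins on antioxidant response elements. KEAP1 holds NRF2 low in resting cells by directing it to a CUL3 ubiquitin ligase, and electrophiles or metals that modify KEAP1 cysteines relieve that. BACH1 competes for the same elements as a heme-sensitive repressor, and HMOX1 is the best known of the genes it represses.

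The promoter windows of TXNRD1 show what such an element looks like at one of these genes. The search for these genes left out the windows of 1 chromosome, and of the 3 genes 1 had a window among the others. RefSeq (GRCh38.p14) lists 2 start sites on the plus strand of chromosome 12, and each window runs from 250 bases before the start site to 50 bases from it. Capitals mark matches on either strand to TGACNNNGC, a core form of the antioxidant response element.

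TXNRD1, first start site, chr12:104215529-104215828: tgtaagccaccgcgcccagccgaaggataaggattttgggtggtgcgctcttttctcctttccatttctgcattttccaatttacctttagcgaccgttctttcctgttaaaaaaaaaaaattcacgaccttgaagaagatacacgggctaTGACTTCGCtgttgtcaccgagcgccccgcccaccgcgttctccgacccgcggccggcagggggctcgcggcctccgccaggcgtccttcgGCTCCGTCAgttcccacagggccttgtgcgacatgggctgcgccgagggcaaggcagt

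TXNRD1, second start site, chr12:104286782-104287081: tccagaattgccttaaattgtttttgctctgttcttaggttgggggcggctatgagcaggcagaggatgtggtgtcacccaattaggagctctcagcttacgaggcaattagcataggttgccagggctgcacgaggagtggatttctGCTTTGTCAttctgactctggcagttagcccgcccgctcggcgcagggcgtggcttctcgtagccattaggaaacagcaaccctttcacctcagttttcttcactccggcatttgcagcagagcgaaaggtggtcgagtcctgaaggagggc

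The first window held 2 matches and the second held 1. The full letters TGACTCAGC were in neither window. Of 35116 RefSeq promoter windows of 300 bases, 13.3% held TGACNNNGC and 0.561% held TGACTCAGC on either strand, so the first form is common. A match is a description of letters and not a measured binding site, and the probe set does not say which start site was used.

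The RMA log2 intensities fell into sets by replicate number. Array medians over all probe sets were 5.624 to 5.637 in number 1, 5.153 to 5.183 in number 2 and 5.382 to 5.405 in number 3. Between arrays sharing a number, 46.9% to 57.6% of probe sets had exactly equal values, against at most 0.00373% otherwise. Differences were therefore taken between arrays of the same number, and the offset between numbers is shown beside them. A summary over few arrays can return a difference of exactly 0: 89% of tested genes had at least 1 such value among their 3 differences between 100 nm and control.

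HMOX1 had by far the largest difference of the 3 genes. Its log2 intensity was 7.99, 8.10 and 8.72 on the control arrays of replicates 1, 2 and 3, and 11.57, 12.16 and 11.90 on the 5 nm arrays. Every 5 nm array lay above every control array, with a gap wider than the whole range of either group. Group means were 8.27 ± 0.39 in control and 11.88 ± 0.30 with 5 nm particles (SD, n = 3 each). Within replicate numbers 1, 2 and 3 the folds were 12.0, 16.7 and 9.05. In bulk RNA, fewer cells of a type and less RNA per cell cannot be told apart, here or in the differences that follow. The mean log2 difference of 3.61 (SD 0.44, n = 3) was the second highest of the 12155 tested genes, after MT1G, a metallothionein.

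HMOX1 was close to its control level with 100 nm particles. The log2 intensities were 8.18, 8.25 and 8.90 in replicates 1, 2 and 3, with a mean of 8.44 ± 0.40 (SD, n = 3). These values overlapped the control range, because the offset between numbers was larger than the difference from control. Within each number the 100 nm array was the higher one, by 0.20, 0.15 and 0.18 on the log2 scale, a mean of 0.17 (SD 0.026, n = 3) or 1.13-fold. In the order control, 100 nm, 5 nm, the first neighbours overlapped over arrays and the last was set apart.

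The offsets between replicate numbers differed from gene to gene. Equal values and like medians were found within numbers only, and the processing notes do not say whether each number was normalized apart. If it was, which was not tested, levels cannot be compared across numbers, also not after subtracting a median. Overlaps between groups, SDs over arrays and the main limma fit below all compare across numbers and share this limit. On the values as given the control SDs were alike, at 0.39 for HMOX1, 0.36 for TXNRD1 and 0.41 for GSR. Measured from each array's median over the tested genes, control HMOX1 was at 0.63, 1.28 and 1.82 log2 units in replicates 1, 2 and 3. The same quantity was 2.40, 2.32 and 2.20 for TXNRD1. For GSR it was 3.75, 3.61 and 3.45. On this scale the control value of HMOX1 was lowest in replicate 1, where those of TXNRD1 and GSR were highest. The 100 nm arrays kept the same order for HMOX1, at 0.84, 1.42 and 2.0, whereas on the 5 nm arrays it was lowest in replicate 1 and highest in replicate 2 (4.24, 5.39 and 5.01).

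**Figure D1:**
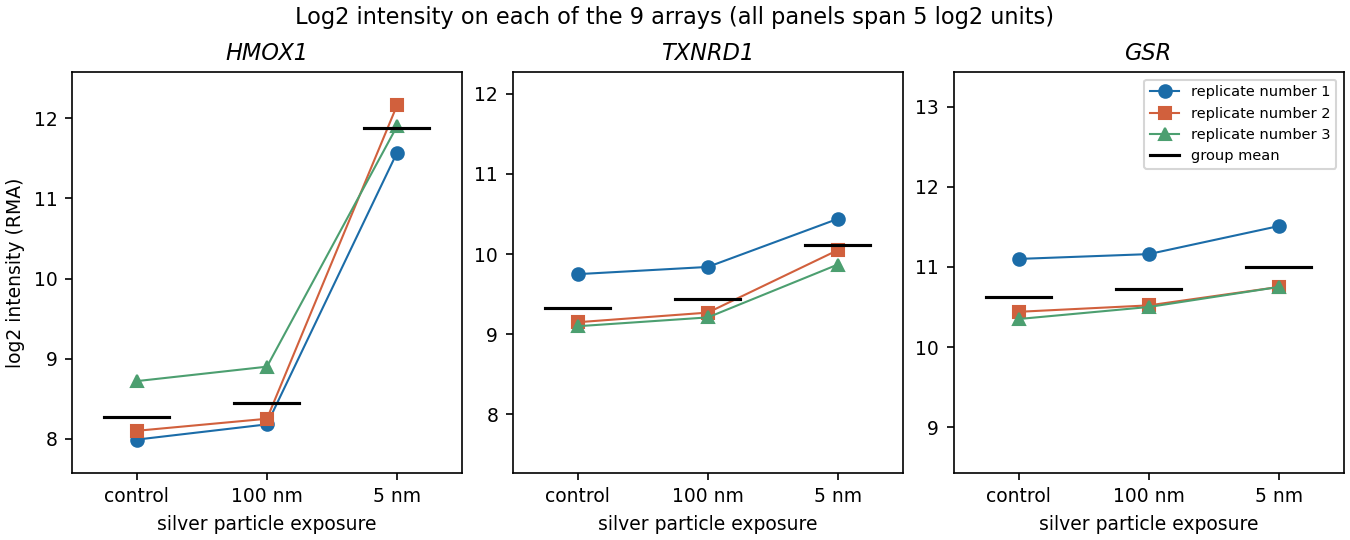
Log2 intensity (y axis) of HMOX1, TXNRD1 and GSR on each of the 9 arrays, by exposure (x axis). Lines join arrays of the same replicate number, black bars are group means, and all panels span the same number of log2 units. HMOX1 with 5 nm particles lies at 11.57 to 12.16, above all its other arrays at 7.99 to 8.90, while GSR groups overlap.

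TXNRD1 had a smaller difference with 5 nm particles. Its log2 intensity was 9.75, 9.15 and 9.10 in control replicates 1, 2 and 3, and 10.44, 10.05 and 9.87 with 5 nm particles. The lowest 5 nm array was still above the highest control array, by much less than for HMOX1. Group means were 9.33 ± 0.36 and 10.12 ± 0.29 (SD, n = 3 each). Within replicates 1, 2 and 3 the log2 differences were 0.69, 0.90 and 0.78, a mean of 0.79 (SD 0.11, n = 3) or 1.73-fold, which ranked 126 of 12155 genes.

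With 100 nm particles TXNRD1 was at 9.84, 9.27 and 9.21, again overlapping the control range. Its mean was 9.44 ± 0.35 (SD, n = 3). The array of the same number was higher by 0.09, 0.12 and 0.11, a mean log2 difference of 0.11 (SD 0.013, n = 3) or 1.08-fold. Control and 100 nm levels overlapped over arrays, and the 5 nm level lay above both. The gap to the 100 nm arrays was narrow and lay across numbers, from 9.84 in replicate 1 to 9.87 with 5 nm particles in replicate 3.

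GSR had the smallest difference of the 3 with 5 nm particles, and its groups overlapped. The log2 intensity was 11.10, 10.44 and 10.35 in control replicates 1, 2 and 3, and 11.51, 10.75 and 10.75 with 5 nm particles. Replicate 1 was the highest array in each group, and its control array exceeded the 5 nm arrays of replicates 2 and 3. Group means were 10.63 ± 0.41 and 11.00 ± 0.44 (SD, n = 3 each). Within replicates 1, 2 and 3 the differences were 0.41, 0.31 and 0.39, with a mean of 0.37 (SD 0.050, n = 3) or 1.29-fold, which ranked 403 of 12155 genes.

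GSR was at 11.16, 10.52 and 10.50 with 100 nm particles, a mean of 10.73 ± 0.38 (SD, n = 3). Each array was above the control of its number, by 0.06, 0.09 and 0.15. The mean log2 difference was 0.10 (SD 0.046, n = 3), or 1.07-fold. Neighbouring group levels of GSR overlapped, with an SD over arrays that holds the offset between numbers. Within numbers all its differences were positive, with a far smaller SD.

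Set side by side, the 3 genes kept 1 order of response to 5 nm particles. In every replicate number the log2 difference of HMOX1 exceeded that of TXNRD1, by 2.89, 3.16 and 2.40 in replicates 1, 2 and 3. TXNRD1 in turn exceeded GSR by 0.28, 0.59 and 0.38. The number with the largest difference was replicate 2 for HMOX1 and TXNRD1, whereas for GSR it was the number with the smallest. With 100 nm particles HMOX1 again had the largest difference in each number, and GSR exceeded TXNRD1 in replicate 3 alone.

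**Figure D2:**
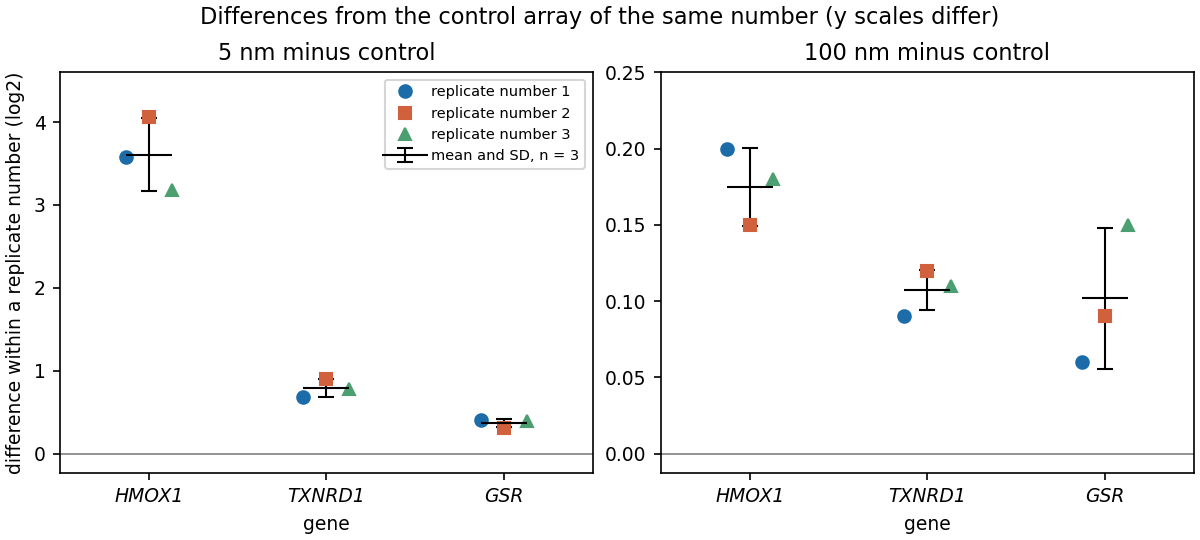
Log2 difference from the control array of the same replicate number (y axis) for each gene (x axis), with 5 nm particles on the left and 100 nm particles on the right. Points are replicate numbers, bars the mean and SD (n = 3), and the y scales differ. The means run from 3.61 to 0.37 on the left and from 0.17 to 0.10 on the right.

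All 3 genes were higher in all 3 replicate numbers with 5 nm particles, as were 8.03% of tested genes. All 3 were also higher in all 3 numbers with 100 nm particles, against 1.25% of tested genes. Of the 3, HMOX1 and TXNRD1 had 5 nm arrays that did not overlap the controls, a pattern that 1.41% of tested genes shared in that direction. With 100 nm particles 0 of the 3 had arrays clear of the controls, where the background was 0.00823%. These shares give the background and nothing is read from them, since the choice of genes used these differences. Both comparisons also share the 3 control arrays, so they are not independent.

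The 100 nm difference of HMOX1 was small and of like size in all 3 numbers. Its 3 values all exceeded 0.1 on the log2 scale, a limit passed in all 3 numbers by 8 genes (0.0658% of those tested) in the higher direction and by 11 (0.0905%) in the lower. The other genes in the higher direction, named after their values were seen, were MIR548H2, MIR3621, MIR4268, NF1P2, POU5F1P4, MORC1 and KLF14. Of these the first 3 are microRNA loci and the next 2 are pseudogenes. TXNRD1 and GSR each fell short of 0.1 in replicate 1, and GSR also in replicate 2. HMOX1 was chosen for this pattern, so its place there is a description.

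The difference between particle sizes ran in the same order of genes as the 5 nm difference from control. HMOX1 was higher with 5 nm than with 100 nm particles by 3.38, 3.91 and 2.99 in replicates 1, 2 and 3. TXNRD1 was higher by 0.60, 0.78 and 0.67, and GSR by 0.34, 0.23 and 0.24. In fold terms the means were 10.8 for HMOX1, 1.61 for TXNRD1 and 1.21 for GSR. All 3 were higher in all 3 numbers (background 8.04%), and the arrays of HMOX1 and TXNRD1 did not overlap between the sizes (background 1.37%). For TXNRD1 that gap was narrow, from 9.84 to 9.87.

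The other genes of these pathways were taken from 8 lists with 187 distinct genes beside the 3 described, of which 117 were tested. None passed in either direction in limma with Benjamini-Hochberg adjustment over all genes, for 5 nm or 100 nm particles against control or for 5 nm against 100 nm. The background in that fit was 9 of 12155 genes called with 5 nm particles, 0.074%, all higher, 0% with 100 nm particles and 0.0658% between the sizes. With the replicate number as a block, 0 of the 117 passed as well, where 79 of all tested genes (0.65%) passed with 5 nm particles and 75 (0.617%) between the sizes. Values exactly equal within a number add no spread to the blocked fit, so its p-values may be too small. With the block on the compared groups only, 0 of all tested genes passed with 5 nm particles and 0 between the sizes. At an unadjusted p under 0.05 in limma, 5 of the 117 (4.27%) passed with 5 nm particles without the block and 38 (32.5%) with it, 19 higher and 19 lower. The same limit was passed by 1.65% and 14.3% of all tested genes, and by 1.7% and 14.3% between the sizes. With 100 nm particles 0 of the 117 passed it in either fit, against 0% and 0.271%.

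Among the regulators of the pathway, 14 of 18 listed genes were tested, with 8 positive and 3 negative in all 3 numbers with 5 nm particles, where 8.03% and 13.4% of all tested genes were. NFE2L2, which encodes NRF2, had differences of 0.36, 0.89 and 0.27 in replicates 1, 2 and 3. MAFG and MAFF, its small MAF partners, had 0.63, 1.56 and 0.36, and 0.34, 0.52 and 0.08. SQSTM1, the p62 adaptor that can draw KEAP1 into autophagy, had 0.57, 0.76 and 0.37. CUL3, of the ligase to which KEAP1 directs NRF2, was also higher in every number, with 0.23, 0.53 and 0.21. So were GSK3B with 0.10, 0.29 and 0.06, CREBBP with 0.06, 0.10 and 0.08, and EP300 with 0.14, 0.12 and 0.01. CUL3, GSK3B, CREBBP and EP300 were named after their values were seen. The 3 regulators lower in every number, named after their values were seen, were NFE2L1 with -0.19, -0.59 and -0.11, NFE2L3 with -0.14, -0.47 and -0.27, and PALB2 with -0.27, -0.93 and -0.13. NFE2L1 and NFE2L3 are relatives of NRF2, and PALB2 is a DNA repair protein that binds KEAP1. KEAP1 itself was at exactly 0 in replicates 1 and 3 and at -0.41 in replicate 2. The list median was 0.087, beside 0 over all tested genes, and 0 of 14 passed. BACH1 and MAFK were not analysed here, since no probe set was kept that carried either as its only symbol.

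In the regulators named, apart from EP300, replicate 2 had the widest differences, as it had for HMOX1 and TXNRD1. With 100 nm particles NFE2L2 was at 0.07, 0.12 and 0.00. Of the 14 tested regulators 0 were higher and 2 lower in all 3 numbers, where 1.25% and 1.41% of all tested genes were.

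Of 44 listed target enzymes and transporters with antioxidant response elements, 18 were tested, with 14 positive, 2 negative and 2 at exactly 0 with 5 nm particles. Such counts by sign, here and for the lists below, take in mean differences of any size. The same share over all tested genes is not given, so no direction of a list is read from them. SRXN1, sulfiredoxin, which rescues overoxidised peroxiredoxins, had differences of 0.88, 1.39 and 0.76. OSGIN1, an oxidative stress induced growth inhibitor, had 1.22 and 0.98 in replicates 1 and 2 and exactly 0 in replicate 3. TALDO1, the pentose phosphate enzyme transaldolase, had 0.47, 0.52 and 0.23, and UGDH, which makes UDP-glucuronate, 0.35, 0.26 and 0.17. These last 2 genes were named after their values were seen. PRDX1, a peroxiredoxin, and TXN, thioredoxin itself and the substrate of TXNRD1, were near 0 with mean differences of 0.089 and 0.053.

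The median of these targets was 0.058, and 0 of 18 passed. Of the 18, 5 were positive and 0 negative in all 3 numbers, beside 8.03% and 13.4% of all tested genes. RIT1, named after its values were seen, had the highest mean difference of the list, with 1.00, 1.39 and 0.71. The textbook targets NQO1, GCLM, GCLC, SLC7A11, FTH1 and FTL also had no probe set with that symbol alone. They were not analysed here, so the list is covered only in part. Probe sets that share several symbols had been left out.

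**Figure D3:**
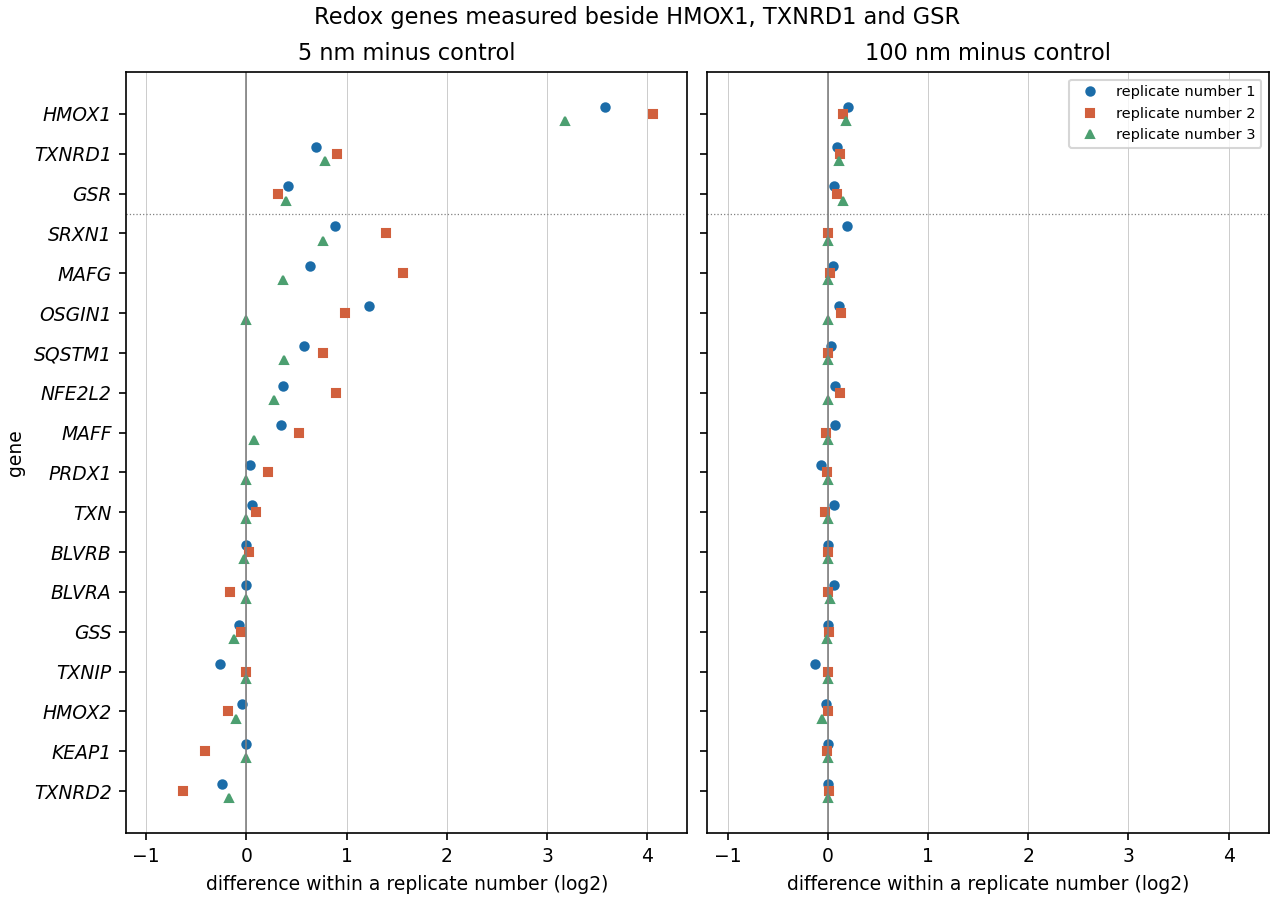
Log2 difference from the control array of the same replicate number (x axis) for HMOX1, TXNRD1, GSR and the measured genes of a fixed set of pathway genes (y axis), with 5 nm particles on the left and 100 nm particles on the right. Points are replicate numbers. SRXN1 and MAFG reach 1.39 and 1.56 in replicate 2, HMOX1 stands to the right of all others at 3.18 to 4.06, and on the right side most points sit at or near 0.

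The paralogs of the 3 genes did not share their direction. HMOX2, the constitutive heme oxygenase, had log2 intensities of 8.42 ± 0.61 in control and differences of -0.04, -0.18 and -0.10 with 5 nm particles. TXNRD2, the mitochondrial thioredoxin reductase, had -0.24, -0.63 and -0.17. TXNRD3, the third member of that family and named after its values were seen, had -0.31, -0.53 and 0.00. None of these paralogs passed in limma, with or without the block, and their difference from the described genes was not tested.

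Steps next to heme oxygenase were close to 0. BLVRA and BLVRB, the biliverdin reductases that follow it, had mean differences of -0.053 and 0.0024 with 5 nm particles. Over the heme and iron list, 14 of 32 genes were tested, 11 of them negative and 3 positive, with a median of -0.063 and 0 passing. In all 3 numbers 2 were positive and 3 negative, beside 8.03% and 13.4% of all tested genes. HPX, hemopexin, a heme carrier named here after its values were seen, had 0.24, 0.46 and 0.38 without passing.

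Within the thioredoxin and peroxiredoxin list, 26 of 27 genes were tested, with 8 positive, 16 negative and 2 at exactly 0, and a median of -0.035. Of the 26, 5 were positive and 4 negative in all 3 numbers, beside 8.03% and 13.4% of all tested genes. SRXN1 had the highest difference there. RRM2B, a ribonucleotide reductase subunit that p53 induces, had the lowest with -0.82, -0.83 and -0.27. TXNIP, the thioredoxin inhibitor, had -0.26 in replicate 1 and exactly 0 in replicates 2 and 3. GLRX, glutaredoxin, had 0.61, 0.56 and 0.16, and TXNL1, a thioredoxin-like protein, 0.28, 0.31 and 0.19. None of the 26 passed, and RRM2B, GLRX and TXNL1 were named after their values were seen.

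The glutathione list held little in the direction of GSR. Of 27 genes tested from 38 listed, 18 were negative, 6 positive and 3 at exactly 0, with a median of -0.025 and 0 passing. Of these, 8 were negative in all 3 numbers and 0 were positive in all 3, beside 13.4% and 8.03% of all tested genes. GSS, glutathione synthetase, had -0.07, -0.05 and -0.12. GPX1, the cytosolic glutathione peroxidase named after its values were seen, had -0.16, -0.16 and -0.28.

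Of 7 tested genes of NADPH supply 5 were negative, and of 7 superoxide and peroxide enzymes 5 were negative, with medians of -0.056 and -0.052. Of 19 tested selenoproteins and selenium insertion factors, a group to which TXNRD1 belongs, 7 were positive, 11 negative and 1 at exactly 0. Of the 19, 3 were positive and 4 negative in all 3 numbers, beside 8.03% and 13.4% of all tested genes. SELENOK, a selenoprotein of the endoplasmic reticulum named after its values were seen, had 1.09, 1.53 and 0.29, with adjusted p = 0.829 in limma.

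**Figure D4:**
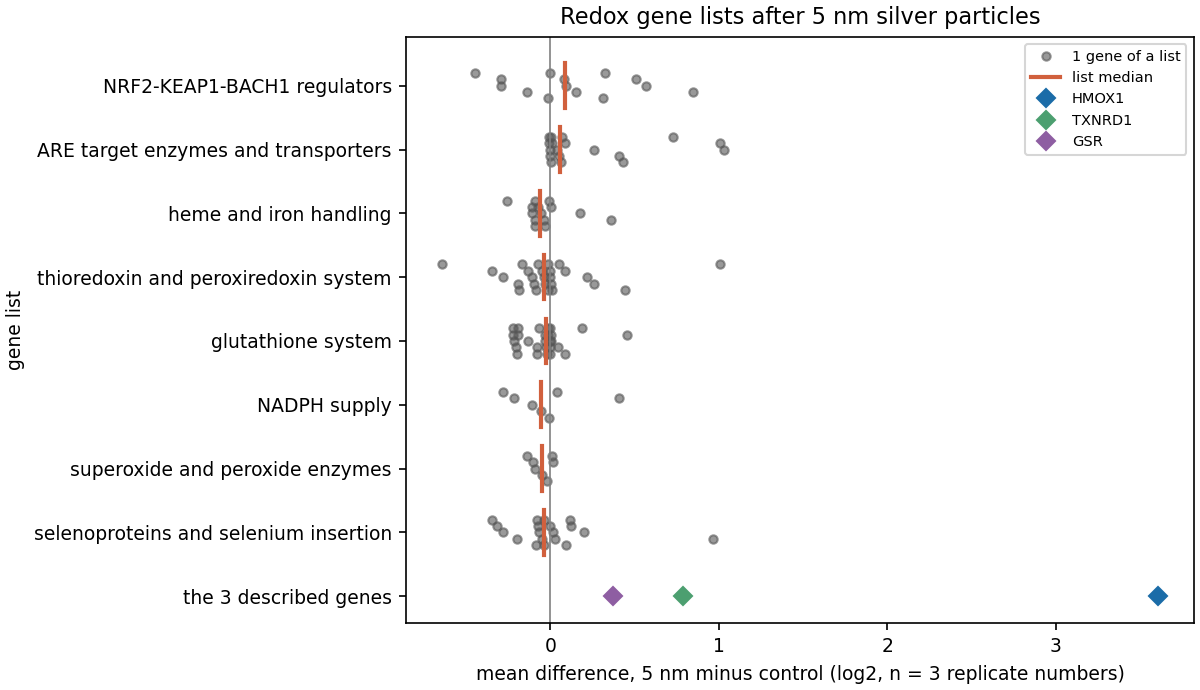
Mean log2 difference between 5 nm and control (x axis, n = 3 replicate numbers) of each tested gene in 8 redox lists (y axis), with list medians as vertical bars. HMOX1, TXNRD1 and GSR are the diamonds in the last line. List medians lie between -0.063 and 0.087, and the highest list gene is at 1.03.

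Genes with the most similar pattern were ranked by Pearson's r over the 9 arrays, after subtracting the mean of the 3 arrays of each number. Candidates were the 1234 genes whose mean 5 nm difference was at least 0.3 in size. For HMOX1 the closest were HSPA1B (r = 0.996), an inducible HSP70, ZEB1 (r = 0.996), a zinc-finger repressor, MT1E (r = 0.996) and MT1G (r = 0.995), both metallothioneins, and MMP10 (r = 0.995), a matrix metalloproteinase. Their sizes ran from 0.50 for ZEB1 to 5.44 for MT1G, so a like pattern did not mean a like size. Probe sets of HSPA1B and of the metallothioneins may read near-identical copies, and the control mean of MT1G, 4.72, lies below the filter level of 5.

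For TXNRD1 the closest were FBXO30 (r = 0.995), an F-box protein, HSPA1B (r = 0.994), UBXN4 (r = 0.991), which acts in degradation at the endoplasmic reticulum, HSPA9 (r = 0.990), the mitochondrial HSP70, and NRIP3 (r = 0.990). For GSR they were HIPK2 (r = 0.986) and MAPK6 (r = 0.982), both protein kinases, then ZNF451 (r = 0.967), NAV3 (r = 0.957) and MAP1B (r = 0.954). Among the candidates, 174 had r above 0.95 with HMOX1, 135 with TXNRD1 and 6 with GSR. The genes share the same 9 arrays and the candidates were taken for a 5 nm difference, so no p is given. Between the described genes r was 0.993 for HMOX1 and TXNRD1, 0.951 for HMOX1 and GSR, and 0.958 for TXNRD1 and GSR.

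The labelled cell type was checked against markers. Of 10 endothelial markers with a named probe set, 9 had a control mean of at least 5, led by ENG at 12.40, and EMCN was below it at 3.25. Of 10 epithelial markers 9 were at or above 5, led by KRT18 at 10.85, in a line that has a carcinoma parent. Of 5 leukocyte markers, 3 were at or above 5, and CD14 and CD163 were below it. CD68, a lysosomal protein also present in other cells, led at 11.82. Of 3 fibroblast and muscle markers, DCN and LUM were below 5, and DES was above it at 6.68. Summed endothelial intensities, taken back to the linear scale, were 14330 to 17980 in control, 11590 to 16570 with 5 nm and 14360 to 17990 with 100 nm particles, and the epithelial sums were 2327 to 4268, 2005 to 3971 and 2198 to 4371 in the same order. These ranges overlap, but within numbers both sums were lower with 5 nm particles. The ratio of the 5 nm to the control sum was 0.922, 0.809 and 0.891 for endothelial markers in replicates 1, 2 and 3, and 0.930, 0.953 and 0.861 for epithelial ones. For leukocyte markers the ratio was 0.995, 0.997 and 0.956, and for fibroblast and muscle ones 1.05, 0.911 and 0.882. Of all tested genes, 13.4% were lower and 8.03% higher with 5 nm particles in all 3 numbers. Of 9 tested endothelial markers, KDR, ENG and ICAM2 were lower with 5 nm particles in all 3 numbers and 0 were higher. Of 9 tested epithelial markers, KRT7 and KRT8 were lower in all 3 and 0 were higher. None of these 5 genes, named after their values were seen, passed in limma, with or without the block. For 100 nm particles 0 endothelial or epithelial markers were lower or higher in all 3 numbers, where 1.41% and 1.25% of all tested genes were. The part of these markers in the differences above was not tested.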

How the data were processed

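Expression was measured in EA.hy926 cells on 9 arrays. Per the submitters' processing notes, the authors ran RMA in Affymetrix Expression Console 1.3.1, and the 53617 deposited probe set values are log2 intensities. A genome build was not given in the sources used here. The platform annotation gave exactly 1 symbol to 16098 probe sets, updated through the Entrez identifier. The other 70.0% had no symbol or more than 1 and were left out. The probe set with the highest mean stood for a gene.

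Differences were tested in limma 3.58.1 under R 4.3.3 (eBayes, Benjamini-Hochberg adjusted p under 0.05) on group means of all 9 arrays, with 6 residual degrees of freedom; the script was tested on simulated data. With the replicate number as a block, 4 remained. Array deviations from the mean of their group had r of 0.762 to 0.967 within a number and -0.582 to -0.265 across numbers. Deviations within a group sum to 0, which by itself pulls r across numbers below 0. Arrays of a number were thus alike, and whether through culture or processing was not tested.

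The members, lists and tests were chosen with earlier results of these data known. Named genes were the 3 described, list members past the threshold, a fixed set of 26 pathway genes (15 of them measured) and the 5 genes most like each described gene; others are said to be so. Alternatives covered the block, scaling, filters, probe set choice, variance prior and left-out arrays. The array number limits the precision.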

Additional observations from a re-analysis of the deposited data

How the results depend on the processing

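The described differences kept their direction under 7 alternatives each (2 other scalings, 2 other probe set rules and leaving out replicate number 1, 2 or 3) and moved by less than the SD over replicate numbers. Only the 2 scalings could have come out otherwise. Each gene has 1 probe set, so the probe set rules return the same values. With 3 differences of 1 sign, leaving out 1 number can neither reverse the mean nor move it by the SD. With 5 nm particles the described differences ranged from 3.38 to 3.82 for HMOX1, 0.73 to 0.84 for TXNRD1 and 0.33 to 0.40 for GSR, and with 100 nm particles from 0.16 to 0.19, 0.10 to 0.12 and 0.08 to 0.12. Under 18 alternatives 0 genes of the pathway lists passed in any comparison, and 0 genes of all tested passed with 100 nm particles. The count of all genes past the threshold in limma, 9 with 5 nm particles against control and 8 against 100 nm, depended on the setting. It was 79 and 75 with the replicate block on all 9 arrays, 0 and 0 with the replicate block on the compared groups only, 19 and 17 with quantile normalization over the 9 arrays, 4 and 4 with array medians subtracted, and 15 and 15 with a floor of 6. The trend and robust prior gave 13 between the sizes. Leaving out 1 array gave 6 to 16 and 6 to 20, with 16 and 20 without the 5 nm array of replicate 3. The causes were not tested. Small differences near exactly 0 may be hidden by the summary over few arrays.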

Other observations

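Of the pathway list genes, 153 had a RefSeq promoter window in a search that left out 1 chromosome. Of these, 35 (22.9%) held TGACNNNGC in at least 1 window, beside 16.1% of 27305 genes with a window, where that limit was not applied. The full form TGACTCAGC was found for 5 of the 153 (3.27%) and for 0.689% of all genes. The lists were drawn up around antioxidant genes, so these shares describe that choice.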
